A study of Rattus norvegicus with 6 samples.

Results

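Circular RNAs (circRNAs) are closed loops made when a splice donor is joined backwards to an acceptor that lies upstream of it, a step called back-splicing. The loop has no free ends, and circRNAs are abundant in neural tissue. A gene that gives rise to a circRNA is its host, and many hosts give several, because one acceptor can be joined to different donors or one donor to different acceptors. The pineal gland, the tissue studied here, is the brain gland that releases melatonin at night.

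The circRNAs described are exonic ones from hosts with several circRNAs. They were chosen as entries of the exonic type with exactly 1 host ID whose ID had 3 to 5 distinct circRNAs of any type in the union of the 6 libraries' tables. That gave 269 circRNAs of the 2228 found in all (12.1%), or 20.1% of the 1336 exonic ones. They came from 91 of 1052 hosts. Of these hosts, 61 had 3 circRNAs, 20 had 4 and 10 had 5. Together the hosts had 313 circRNAs, of which 44 were intronic.

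Total RNA came from the pineal glands of 6 rats (Rattus norvegicus) in postnatal week 8, with 1 library per rat; no strain, sex or genotype is given in the sources used here. Rats C01 to C03 form one group and C04 to C06 the other. The labels contradict each other on which is which. By titles and time tags C01 to C03 are night samples (4:00) and C04 to C06 day samples (16:00). The treatment protocol instead has C01 to C03 killed in light between 16:00 and 17:00 and C04 to C06 in the dark, under red light, between 04:00 and 05:00. Groups are called by their rats, and every difference is C01 to C03 minus C04 to C06. The values used here are of circRNAs identified by position and host ID, so pineal marker genes were not checked.

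Each library's main table gives the back-splice reads of a circRNA, the linear reads at its ends and the circular share, the portion of those end reads that comes from the circle. The libraries held 21038, 15506, 17368, 20680, 22265 and 19501 back-splice reads from C01 to C06. The tables hold no circRNA with fewer than 2 back-splice reads or with a circular share under 9.1%, so a circRNA that is not listed was not measured as 0. A list from another caller, called the second list here, gives back-splice reads alone and starts at 2 reads. Coordinates are as in the files. The build is uncertain, because the processing notes name a mouse build (mm9) while the IDs are from rat. The files do not pair host IDs with gene symbols, so hosts are named by ID and what their genes do is not described.

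Most of the 269 circRNAs used a splice site that another circRNA of the same host used too. A start, an end or both was shared by 211 (78.4%), of which 76 shared the start only, 84 the end only and 51 both. The other 58 (21.6%) shared neither. Among 352 exonic circRNAs of hosts with exactly 2 circRNAs, 235 (66.8%) shared an end; a circRNA with more companions has more chances to share. Read on the host's strand, the upstream end of a circle is the acceptor and the downstream end the donor. The acceptor was shared by 154 (57.2%) and the donor by 108 (40.1%).

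The same was seen pair by pair. Of 298 pairs of exonic circRNAs from one host, 100 (33.6%) had the same acceptor and 53 (17.8%) the same donor. A further 96 (32.2%) did not overlap, 27 overlapped in part and 22 were nested with no common end. In hosts with 2 circRNAs, 70 of 157 pairs (44.6%) had the same acceptor and 35 (22.3%) the same donor. Among the 210 circRNAs that the second list also held, 68 of 185 pairs had the same acceptor and 35 the same donor, and the strand was the same in both lists for 210 of 210. The gap was small among all 469 second-list candidates inside the stretches of these hosts, with 288 pairs (15.5%) against 263 (14.2%) of 1855. Among the 77 candidates present in all 6 second lists it was wider again, with 28 (37.3%) against 10 (13.3%) of 75 pairs. Pairs of one host share sites with each other, so these counts are a description with no test.

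Hosts differed in how their circles were laid out. In 13 hosts all circRNAs began at one acceptor, and in 2 (ENSRNOG00000032215 and ENSRNOG00000024501, the latter named after its layout was seen) all ended at one donor. In 65 hosts the pattern was mixed, in 10 no site was shared, and 1 host, ENSRNOG00000006841 on chromosome 7, also picked for its layout, had circRNAs on both strands. There were fewer distinct acceptors than donors in 37 hosts, more in 17 and as many in 37. In 3 of the 20 hosts with 4 circRNAs, ENSRNOG00000019381, ENSRNOG00000002152 and ENSRNOG00000009151 (the last chosen for this layout), each of 2 acceptors was joined to each of 2 donors.

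**Figure D1:**
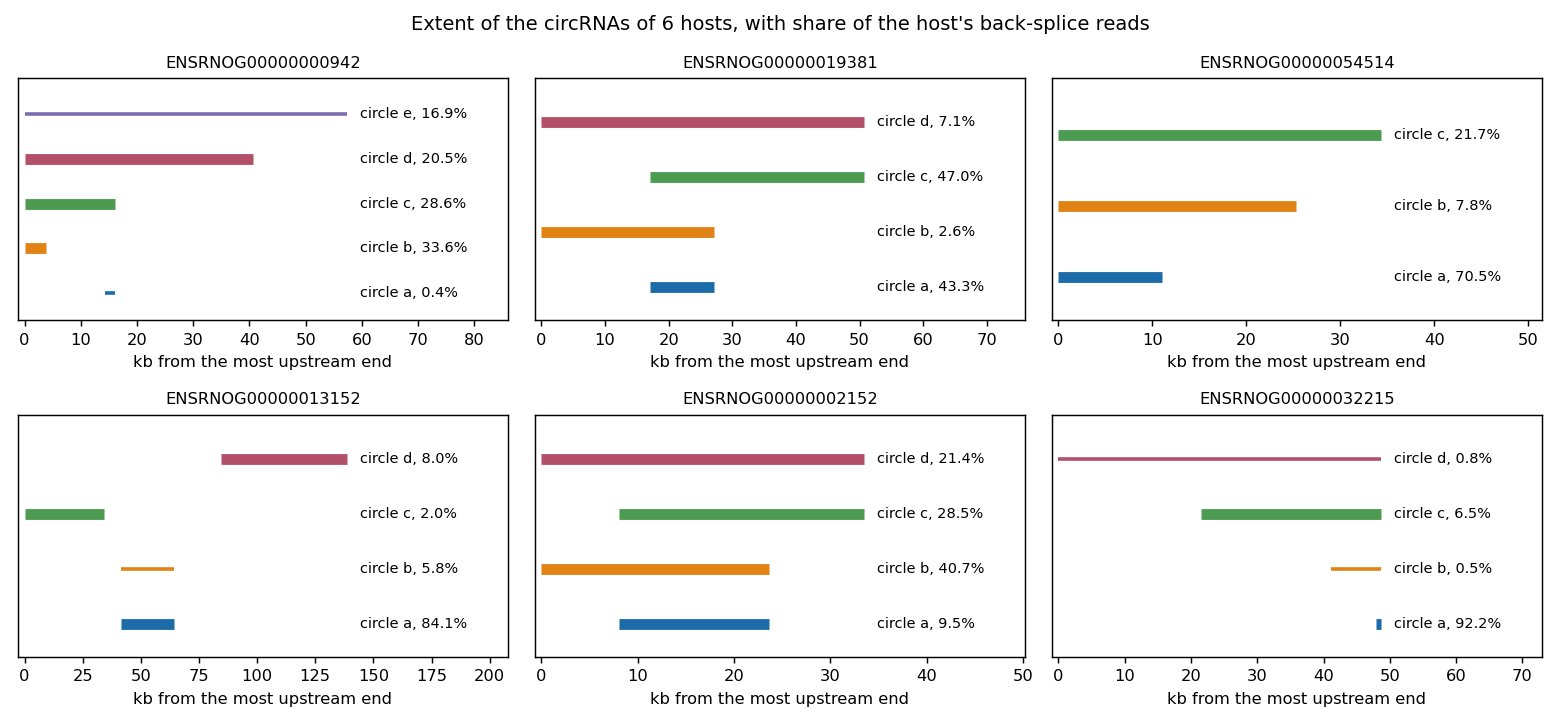
Extent of every circRNA of 6 hosts, in kb from the most upstream end on the host's strand, ordered by span and lettered from the shortest; thick bars are exonic and thin bars intronic circRNAs, and the percentage is the share of the host's back-splice reads over 6 libraries. Of 5 circles of ENSRNOG00000000942, 4 begin at one acceptor, all 4 of ENSRNOG00000032215 end at one donor, and ENSRNOG00000019381 and ENSRNOG00000002152 hold every join of 2 acceptors and 2 donors.

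The span from start to end, introns included, had a median of 19970 bases (quartiles 9680 and 39080, range 238 to 169794). The median was 12730 for exonic circRNAs of hosts with 2 circRNAs and 7748 for those of hosts with 1. Members that shared both ends spanned a median of 28390 bases, those that shared one end 20980 and those that shared neither 12190. They lay on 21 chromosomes, with 31 on chromosome 5, 28 on chromosome 6 and 6 on chromosome X.

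A small set of circRNAs held most of the reads. Only 44 of 269 (16.4%) were listed in all 6 libraries, and these held 70.6% of the 269 circRNAs' reads. At the other extreme, 114 (42.4%) were listed in 1 library, with a median of 5 reads and at most 36. The share listed in all 6 was 15.1% for exonic circRNAs of hosts with 2 circRNAs and 8.86% for those of hosts with 1. None of the 58 circRNAs that shared neither end was listed in all 6 libraries, against 34 of 160 that shared one end and 10 of 51 that shared both.

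Circular share went with listing. No listed circRNA had a circular share under 9.1%, and how far that limit shaped the pattern was not tested. The mean circular share had a median of 27.7% over the 44 circRNAs listed in all 6 libraries (range 15.7% to 69.9%) and of 13.1% over the other 225, not far above the 9.1% limit. Of 51 circRNAs with at least 20 reads in some library, 16 were not listed in another, in 41 library entries. The second list had reads in 31 of those 41 (75.6%). The highest circular share of these 16 had a median of 15.4% and reached 27.0%.

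**Figure D2:**
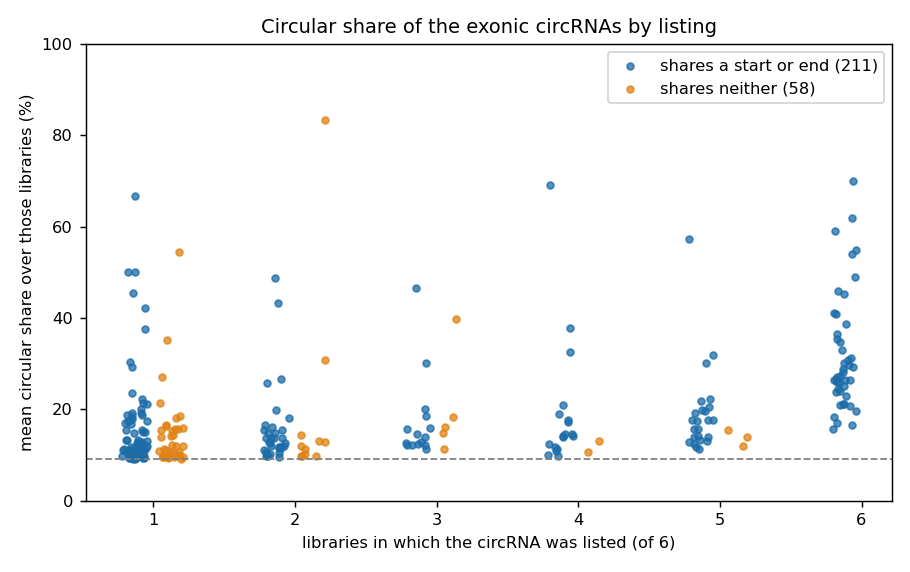
Mean circular share (%) of each of the 269 circRNAs over the libraries that list it, against the number of libraries (points are spread sideways for legibility); blue points share a start or end with another circRNA of the host (211), orange points share neither (58), and the dashed line is the lowest share in the tables, 9.1%. No orange point is listed in all 6 libraries, and the 44 circRNAs listed in all 6 lie at or above 15.7%.

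In each of the 6 libraries, circRNAs that shared an end had more reads and a higher circular share than those that shared none. The median back-splice reads were 10.8 ± 1.03 (SD, n = 6 libraries) against 6.17 ± 1.33, higher in 6 of 6 (exact two-sided sign-flip permutation test, p = 0.031, the smallest 6 pairs allow, adjusted p = 0.046 over 3 comparisons). The median circular share was 19.1% ± 0.804 against 12.9% ± 1.77 (SD, n = 6), again higher in 6 of 6 (exact permutation test, p = 0.031, adjusted p = 0.046). The share of listed circRNAs that the second list also held, 72.6% against 66.3%, was higher in 4 of 6 (exact permutation test, p = 0.22, adjusted p = 0.22). This comparison was added after the values were seen. The hosts of both kinds were not matched for reads. Per library, 94 to 120 circRNAs that shared an end were listed, against 12 to 20 that shared none. The tests measure how alike the rats were, not the spread over circRNAs or hosts.

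Set against exonic circRNAs of other hosts, the differences were smaller. Median back-splice reads were 9.75 ± 0.758 against 7.92 ± 0.801 for hosts with 1 circRNA (SD, n = 6), higher in 6 of 6 libraries (exact sign-flip permutation test, p = 0.031, adjusted p = 0.062 over 6 comparisons). Median circular share was 17.7% ± 0.634 against 14.7% ± 0.68, also higher in 6 of 6 (exact permutation test, p = 0.031, adjusted p = 0.062). Neither passed the threshold after adjustment. Against hosts with 2 circRNAs, median reads differed by 0.417 (higher in 2 of 6, exact permutation test p = 0.5) and circular share by 1.77 percentage points (5 of 6, p = 0.062, adjusted p = 0.094). The second list held 71.9% of listed circRNAs, against 73.4% for hosts with 1 circRNA (exact permutation test, p = 0.44) and 68.5% for hosts with 2 (higher in 6 of 6, p = 0.031, adjusted p = 0.062).

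**Figure D3:**
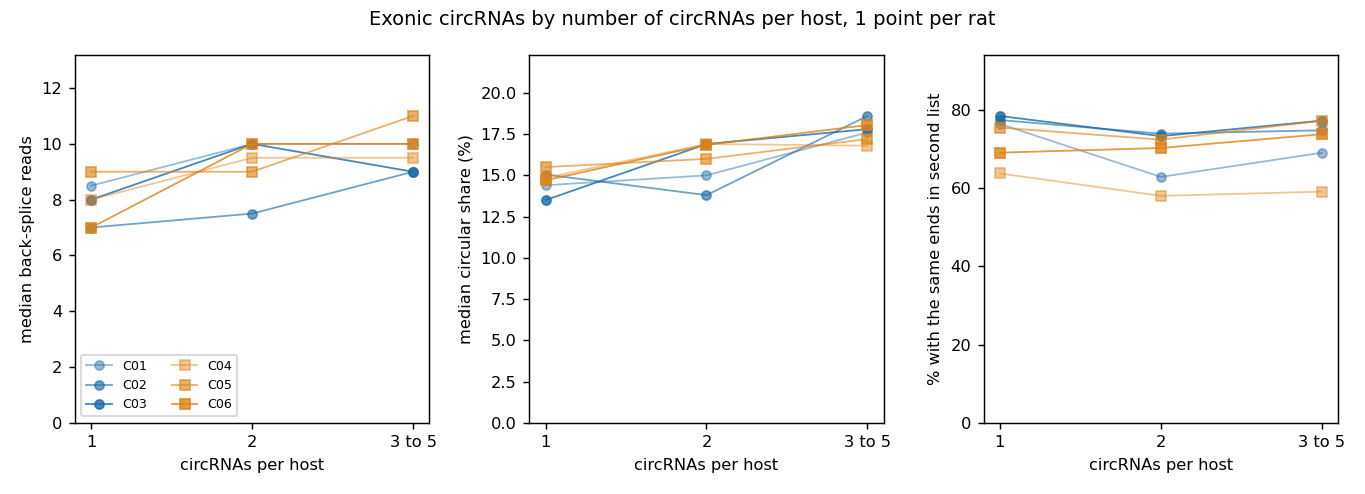
Median back-splice reads per listed circRNA, median circular share (%) and share of listed circRNAs with the same ends in the second list (%), for exonic circRNAs of hosts with 1, 2 and 3 to 5 circRNAs; each line is 1 rat, with blue circles for C01 to C03 and orange squares for C04 to C06. The 6 lines lie higher at 3 to 5 than at 1 for reads and circular share.

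Within a host, one circRNA usually held the larger share of the reads. Among hosts with at least 20 back-splice reads in a library (28 to 35 hosts), the leading circRNA of that library held a median of 64.0% ± 3.65 of the host's reads (SD, n = 6). The largest of several counts is above an even share by construction, so no test against an even split was made. The groups differed by 3.81 percentage points (exact two-sided permutation test, p = 0.2; 3 against 3 cannot go below 0.1). With a minimum of 10 reads per host the difference was 6.58 points (70.6%, 69.1% and 73.7% against 62.5%, 68.3% and 62.9%), with no overlap (exact permutation test, p = 0.1). By the second list, with at least 20 reads, it was -1.09 points (exact permutation test, p = 0.6). By site, the leading acceptor held a median of 94.9% ± 4.91 of a host's reads and the leading donor 74.6% ± 5.04 (SD, n = 6), a description added after the values were seen. The hosts together had 213 distinct acceptors and 247 distinct donors, and the largest share among fewer sites is higher by construction. Exonic circRNAs held 79.0% ± 2.12 of these hosts' reads, and 94.0% ± 0.825 without ENSRNOG00000031760, a chromosome 3 host with 4 intronic circRNAs and 1 exonic one, which was listed in C05 alone with 27 reads and held 0.994% of the host's reads.

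In 21 hosts with at least 20 reads in every library, the same circRNA led in all 6 libraries in 13. The leader was exonic in 19, the shortest circRNA of its host in 10 and the longest in 2, and the second list gave the same leader by summed reads in 15. Among circles with a common site, summed reads were near evenly split between shorter and longer ones. Of the 100 pairs with the same acceptor, the shorter circle had more reads in 54, and of the 53 with the same donor in 27. By library, the shorter had more reads in 51.2% ± 10.8 of same-acceptor pairs listed together and 68.2% ± 19.03 of same-donor pairs (SD, n = 6), and by the second list in 50.2% ± 8.06 of same-acceptor pairs and, over the libraries, in 35.7% to 62.5% of same-donor pairs.

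At one end stood hosts in which a single circle held nearly all reads. ENSRNOG00000023577 on chromosome 9 had the most abundant of the 269, chr9:94463647-94481167, with 220, 173, 195, 246, 275 and 224 reads from C01 to C06 and a circular share of 61.8% ± 1.69 (SD, n = 6). It held 97.0% ± 5.75 of the host's reads. A longer circle from the same acceptor, chr9:94463647-94504892, was listed in C02 alone with 19 reads, yet had 9, 20, 16, 11, 15 and 12 reads in the second list. So the shorter circle led in every library, but the longer one was present in all 6 by the second caller.

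ENSRNOG00000032215 on chromosome 17 gave a circle of 658 bases, chr17:29730437-29731094, with 70, 44, 50, 76, 76 and 51 reads. Its circular share of 69.9% ± 4.30 was the highest of the 44 circRNAs listed in all 6 libraries. It held 92.8% ± 4.34 of the host's reads, and the circle of 27169 bases from the same donor had 7, 4, 0, 5, 7 and 3. ENSRNOG00000013884 on chromosome 16 had chr16:23555919-23600154 with 51, 51, 64, 68, 71 and 47 reads and 96.4% ± 4.68 of the host's reads. In each of these hosts the leader did not change between rats.

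At the other end, reads were spread over several circles. ENSRNOG00000000942 on chromosome 12, minus strand, joined one acceptor at position 9313769 to 4 donors. The circle of 3783 bases had 48, 33, 49, 66, 65 and 61 reads from C01 to C06, that of 16079 bases 31, 35, 47, 48, 60 and 53, and that of 40645 bases 38, 36, 15, 40, 36 and 32. The fourth, of 57294 bases and of the intronic type, had 44, 22, 28, 16, 26 and 26. The 4 circles were listed in every library, and the one with most reads overall held 33.2% ± 4.35 of the host's reads (SD, n = 6). Circular share was 26.5%, 35.5%, 25.1% and 28.9% in the same order, so the circle with the highest share was not the one with the most reads.

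Among the 21 hosts with at least 20 reads in every library, ENSRNOG00000010526 on chromosome 3 had the lowest mean share for its main circRNA, 29.5% ± 18.1 (SD, n = 6), and that circle, chr3:22217774-22259630, was not listed in C01 while it had 10, 13, 16, 18 and 11 reads in the others. The leader was not the same circle in every library. This host had 26 to 55 reads per library.

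The hosts with every join of 2 acceptors and 2 donors show how reads divide by site. In ENSRNOG00000019381 on chromosome 5 the acceptor at 136437825 held 90.9% ± 7.25 of the reads (SD, n = 6). Its joins to the donors at 136447778 and 136471341 had 47, 41, 46, 57, 60 and 48 reads and 43, 48, 54, 63, 73 and 44 reads, close to even. In ENSRNOG00000002152 on chromosome 14, minus strand, the acceptor at 37262083 held 62.3% ± 7.12, while the share of the donor at 37228632 ran from 22.5% in C02 to 74.5% in C05 (SD 19.1 percentage points, n = 6). In this host the division between donors varied more between rats than that between acceptors, with unlisted circles counted as 0. The circle chr14:37228632-37262083 was not listed in C02, and chr14:37238505-37254001 was not listed in C01, C04 or C05. How much of the variation came from listing was not tested.

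**Figure D4:**
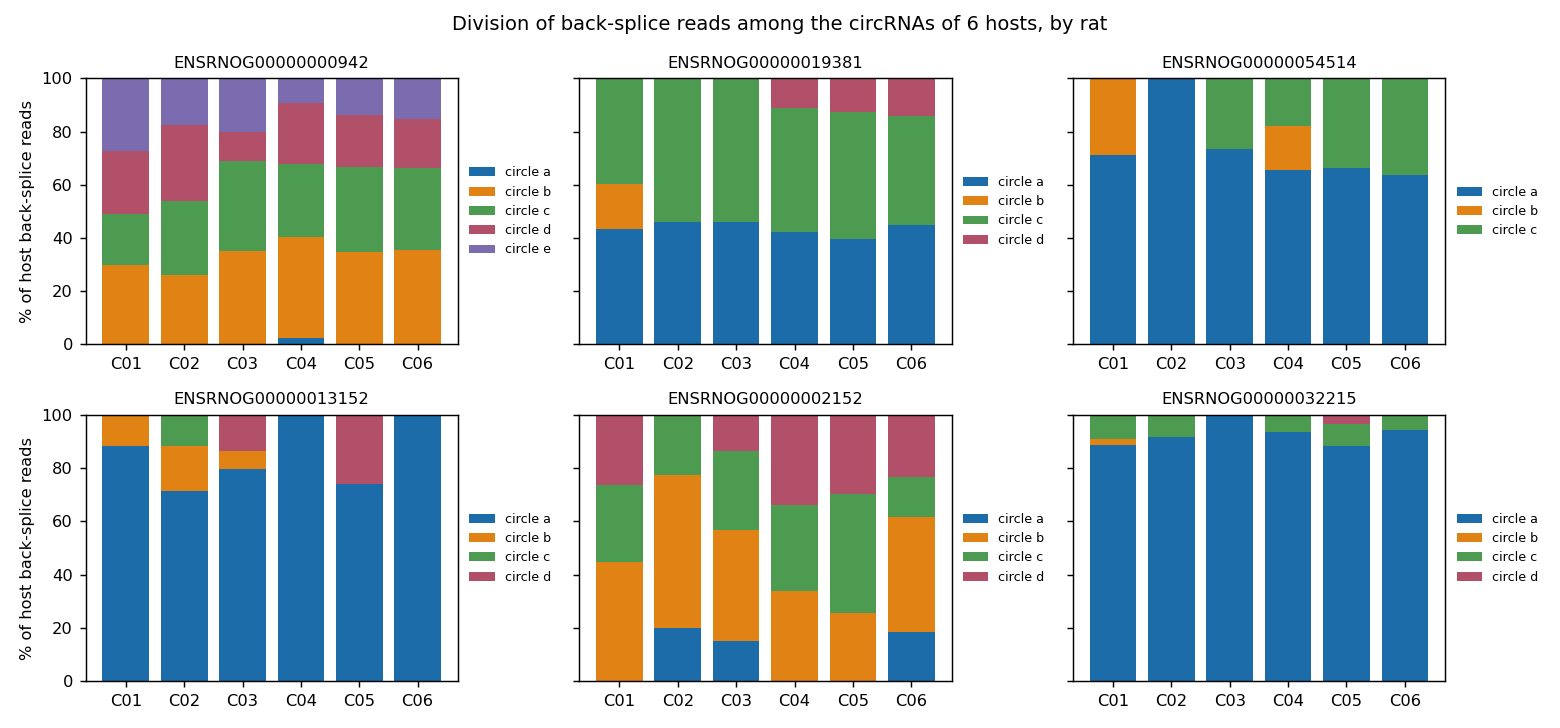
Share of the host's back-splice reads (%) held by each circRNA in each rat for the 6 hosts drawn in the maps, with circles lettered from the shortest. Circle a of ENSRNOG00000032215 holds 92.8% on average, while ENSRNOG00000000942 spreads its reads over 4 circles in every rat; segments absent from a bar were not listed in that library.

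Between the groups, neither the number of the 269 circRNAs that were listed nor their share of the reads differed beyond the spread between rats. From C01 to C06, 113, 115, 123, 132, 136 and 122 were listed, a difference of -13.0 between group means (exact two-sided permutation test, p = 0.2) and -9.67 with every library thinned to the smallest (p = 0.2). They held 9.81%, 11.4%, 12.2%, 11.8%, 12.4% and 11.8% of the libraries' back-splice reads, and the groups overlapped (exact permutation test, p = 0.4). Their summed reads were 2064, 1764 and 2123 against 2432, 2764 and 2306, which did not overlap (exact permutation test, p = 0.1, the smallest the design allows). The library totals given above were not divided out of these sums.

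No single circRNA among the 269 passed the test between groups. Of the 111 that reached 2 reads in 3 or more libraries, 0 were called by edgeR's quasi-likelihood test at an adjusted p of 0.05, where 1.55% of all 772 circRNAs tested were called. At an unadjusted p under 0.05 there were 9, beside 77 of all 772. DESeq2 called 2, chr5:136420692-136471341 and chr6:109729890-109745287, against 3.63% of all. With no filter on low reads edgeR called 3, against 1.84% of all, and without C03 it called 3, against 2.09%. These added chr4:58714647-58748928 (in both), chr8:23508992-23534941, chr19:29642344-29671928 and chr3:54509941-54519757, named after their values were seen. All of these but the chromosome 8 circle were listed in C03 to C06 and not in C01 or C02. Unlisted entries were counted as 0, so the added calls cannot tell a difference in amount from a difference in listing. The median log2 difference was -0.11, beside -0.10 over all circRNAs tested. The groups did not overlap in 3 of 111 higher in C01 to C03 and in 17 lower, where the shares over all circRNAs tested were 5.96% and 13.1%. Among those listed in all 6 libraries the counts were 0 and 8 of 44, beside 5.86% and 14.7% of all 273.

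Of the 8 circRNAs listed in all 6 libraries and lower in C01 to C03 without overlap, none passed the edgeR test. The 2 with the lowest p-values are given here. One was chr9:94463647-94481167, given above, with a log2 difference of -0.21 (SE 0.065, edgeR adjusted p = 0.22). The other was chr4:58714647-58725647 of ENSRNOG00000054514, with 84, 75 and 86 reads against 123, 119 and 97 and a log2 difference of -0.33 (SE 0.11, adjusted p = 0.24). Among those higher, chr4:27509136-27563899 of ENSRNOG00000005502 had 25, 19 and 19 reads against 15, 25 and 11, and the log2 difference was 0.45 (SE 0.38, adjusted p = 1.0). The groups overlapped for it.

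Among the lowest p-values were those of circRNAs that the main tables listed in one group only. For 5 circRNAs, all 3 rats of a group had a listing and the opposite group had none. They passed the filter only through the group that listed them, with unlisted entries counted as 0. Their p-values, and the DESeq2 calls given above, therefore cannot tell a difference in amount from a difference in listing. chr5:136420692-136471341 had 15, 19 and 15 reads in C04 to C06 (adjusted p = 0.089 by edgeR), but the second list had 5, 3, 7, 0, 6 and 5 reads from C01 to C06, and its circular share where listed was 12.2% ± 1.07 (SD, n = 3), near the tables' limit. chr6:109729890-109745287 had 8, 16 and 12 reads in C04 to C06 and, in the second list, 0, 0, 2, 0, 4 and 6. The second list did follow the main tables for chr6:14755038-14758647, where C01 to C03 had 4, 5 and 5 reads and in the second list 3, 7 and 5, and none in C04 to C06 by either caller. Its edgeR adjusted p was 0.22, and 0.86 by second-list counts. Both callers read the same libraries. The remaining pair, chr3:133012095-133050098 with 4, 6 and 4 reads in C04 to C06 and chr1:186006551-186009525 with 6, 3 and 2 in C01 to C03, had few reads. The second list had no reads for the former in any library and 3, 2, 0, 2, 0 and 0 for the latter, thus in both groups, with a log2 difference by its counts of 0.94 (edgeR adjusted p = 1.0).

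**Figure D5:**
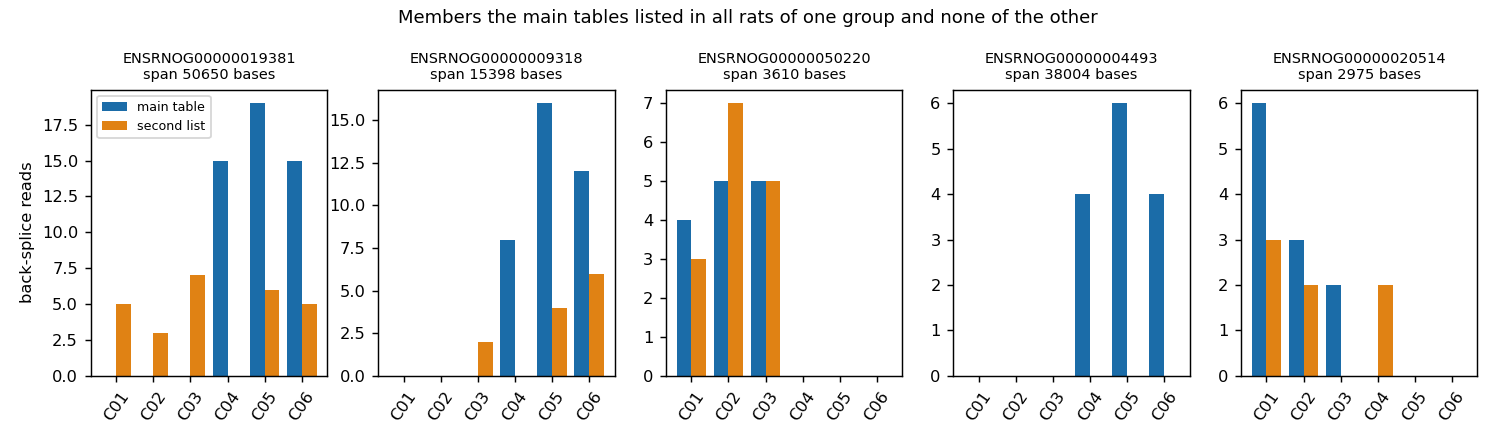
Back-splice reads in the main tables (blue) and in the second list (orange) in each rat for the 5 circRNAs with main-table listings in every rat of a single group alone; vertical scales differ. For the circle of ENSRNOG00000019381 the second list has reads in C01 to C03 (5, 3 and 7), where the main tables list none, and for that of ENSRNOG00000050220 both are at 0 in C04 to C06.

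The reads of all circRNAs of a host were also summed and tested. Of 86 hosts tested, 0 were called by edgeR, where 1.06% of all 473 hosts were. An unadjusted p under 0.05 was seen in 6 of the 86, beside 45 of all 473. DESeq2 called 3 (ENSRNOG00000054514, ENSRNOG00000006084 and ENSRNOG00000006174), beside 4.23% of all. With no filter edgeR called ENSRNOG00000054514 alone (2.19% of all), and among hosts with reads in all 6 libraries ENSRNOG00000002653 alone (1.15% of all). ENSRNOG00000054514 had 118, 75 and 117 reads against 188, 179 and 152, with no overlap and a log2 difference of -0.59 (SE 0.14, edgeR adjusted p = 0.18, DESeq2 adjusted p = 0.03). Its circle of 34282 bases was listed with 31, 34, 60 and 55 reads in C03 to C06 and had no second-list reads in any library. For the host as a whole the second list had 39, 57 and 55 reads against 44, 71 and 42, which overlapped. The log2 difference by those counts was -0.12. ENSRNOG00000002653 had 2, 2 and 2 reads against 18, 15 and 9 and a log2 difference of -2.56 (SE 0.74, adjusted p = 0.21). A count of 2 reads is the lowest that the main tables list, so C01 to C03 lay at that limit. ENSRNOG00000006084 had 6, 9 and 19 reads in C04 to C06 and ENSRNOG00000006174 had 12, 3 and 11 in C01 to C03, and neither was listed in the other group. Both hosts passed the filter only through the group that listed them, with unlisted entries counted as 0. Their DESeq2 calls therefore cannot tell a difference in amount from a difference in listing. The second list had 0, 0, 0, 5, 9 and 10 reads for ENSRNOG00000006084 from C01 to C06, with a log2 difference by its counts of -6.06 (edgeR adjusted p = 0.46). It had 5, 0, 6, 2, 2 and 0 for the other, thus in both groups, and the log2 difference of ENSRNOG00000006174 by its counts was 1.26 (edgeR adjusted p = 1.0).

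The division of reads among the circRNAs of one host was tested with edgeR's test for differential usage. It called 2 of 39 hosts, where 4.05% of all 74 hosts tested were called. They were ENSRNOG00000019381 (adjusted p = 0.00059) and ENSRNOG00000013152 (adjusted p = 0.0049). In the first the call rested on the circle of 50650 bases described above, which was not listed in C01 to C03. In the second it rested on an intronic circRNA, chr19:34249087-34272192, which ends 47 bases beyond the leading exonic circle. That circRNA had no listing in C04 to C06 against 10, 17 and 8 reads in the other group. Both circles passed the filter only through the group that listed them, with unlisted entries counted as 0. The test therefore cannot tell a changed division from a difference in listing. The leading circle, chr19:34249087-34272145, had 77, 73, 94, 93, 91 and 76 reads. The second list held the intronic circle in both groups, with 4, 19, 8, 6, 2 and 0 reads, and by its counts 0 of 44 hosts were called (0.00% of all 111), with an adjusted p of 0.98 for both hosts. With circRNAs listed in all 6 libraries only, 0 of 12 were called (0.00% of all 25), and with no filter ENSRNOG00000019381 alone (1.94% of all). Leaving out a rat gave 1 call without C02, C04 or C06 (6.15%, 1.54% and 1.54% of all) and 4 without C03 (9.38%). The calls without C03 added ENSRNOG00000054514 (adjusted p = 0.00027). Without C01 the 2 calls were ENSRNOG00000019381 and ENSRNOG00000011909 (adjusted p = 0.014 and 0.026). With that rat left out, a circle of each added host, chr4:58714647-58748928 and chr8:104504801-104514522, was listed in C04 to C06 only. For these added hosts the test cannot tell a changed division from a difference in listing. In ENSRNOG00000019381 the call was also lost without C04, C05 or C06 (adjusted p from 0.98 to 1.0), when that circle was listed in fewer than 3 libraries and left the test. ENSRNOG00000013152 was not among the hosts tested without C01, C02 or C03, for the same reason.

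The circular share could be tested in the 44 circRNAs listed in all 6 libraries. None passed the limma test of back-splice over linear reads, where 2.20% of all 273 did. An unadjusted p under 0.05 was seen in 5 of the 44, beside 56 of all 273. The edgeR interaction test called 2, beside 11.7% of all. They were chr5:160066006-160070914 of ENSRNOG00000033556 and chr8:23508992-23560371 of ENSRNOG00000015189. The first had circular shares of 32.1%, 40.8% and 41.4% against 58.4%, 51.5% and 48.0%, with no overlap (log2 difference -0.85, SE 0.27, limma adjusted p = 0.15). The other had 21.2%, 26.2% and 26.5% against 28.6%, 39.5% and 35.9% (log2 difference -0.69, SE 0.28, limma adjusted p = 0.22). Its back-splice reads hardly differed, at 64, 70 and 68 against 58, 87 and 78, while its linear reads were 475, 394 and 377 against 290, 267 and 279. The opposite direction was seen for chr7:30727478-30735182 of ENSRNOG00000024870, with 55.3%, 59.5% and 72.2% against 52.0%, 47.9% and 42.4% (log2 difference 0.87, SE 0.31, limma adjusted p = 0.18).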

How the data were processed

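Total RNA libraries of 6 pineal glands were compared, 3 against 3. Per the file headers, the authors' main tables, in the column format of CIRI, give counts of back-splice and linear reads and the circular fraction, 2 times back-splice reads over that number plus linear reads, printed here in percent. The deposited second lists, in the format of find_circ, give counts of junction reads; their starts were raised by 1. The submitters' processing notes name only DESeq and the build mm9; no aligner or caller version is given in the sources used here. A TPM table of circRNAs was not used. Members and comparisons were chosen with earlier results of these data known.

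Tables were joined by position and unlisted entries counted as 0. Every circRNA that reached 2 reads in 3 or more libraries was tested, over the whole table, with edgeR 4.0.16 (TMM, quasi-likelihood; differential usage for division) and DESeq2 1.42.0 as alternative. Circular share was tested with limma 3.58.1 on the log2 ratio of back-splice to linear counts, with 0.5 added to both. P-values were Benjamini-Hochberg adjusted, threshold 0.05. Scripts were tested on simulated data. Library totals ran from 15506 to 22265 back-splice reads. Named hosts were the 12 with most reads, those leading each test, and those with extreme leading shares. Labels describe separate rats.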

Additional observations from a re-analysis of the deposited data

Results flagged for a closer look

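The second lists held back-splice candidates that no main table lists but that used a start or end of one of the 269 circRNAs. There were 189 of them, in 67 of the 91 hosts, of which 121 were in 1 list and 17 had both ends at such sites. The 8 present in all 6 second lists are given with their reads summed over the 6 libraries. In the stretch of ENSRNOG00000013152 on chromosome 19, chr19:34249087-34253181 had 56 reads, chr19:34249087-34346224 had 42 and chr19:34249087-34312530 had 33, all from the acceptor of the leading circle. chr19:34298523-34346224 had 27 reads and chr19:34292209-34312530 had 23. Also on chromosome 19, chr19:29664470-29671928 had 47 reads. On other chromosomes, chr11:34612627-34631134 had 36 reads and chr3:105034310-105054485 had 18. The second lists give no linear reads, so their circular share is not known.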

How the results depend on the processing

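No paired analysis was possible because the rats are numbered 1 to 6 and the groups share no number. Circles called between groups rose from 0 to 2 with DESeq2 and 3 with no filter, and to between 0 and 3 when each rat was left out (3 without C03). Hosts called on summed reads rose from 0 to 3 with DESeq2, to 1 among hosts with reads in all 6 libraries and to 1 with no filter. Hosts called for division fell from 2 to 0 among circRNAs listed in all 6, to 1 with no filter and to 0 by second-list counts, and ran from 1 to 4 when each rat was left out (4 without C03). Circular share went from 0 to 2 with the edgeR interaction. By second-list counts chr5:136420692-136471341 turned to a log2 difference of 0.41 (adjusted p = 1.0), having reads in both groups there.

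Only the leading circRNA of each host gave differences of 6.17 reads and 9.36 percentage points of circular share against hosts with 1 circRNA, and 3.5 and 5.84 against hosts with 2; the largest of several is higher by construction. With at least 5 reads these were 2.67 reads and 4.24 points against hosts with 1, and 2.6 points against hosts with 2, where the share held by the second list differed by 7.15 points (exact permutation tests, adjusted p = 0.047 for each at 5 reads). The leading share was 67.8% with a minimum of 10 reads. Of circRNAs that both callers listed in the same library at least once, 124 of 189 shared an end. The cause of each change was not tested. Depth limits the precision of rare circles: the 114 listed once had a median of 5 reads.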
